A study of Homo sapiens with 2 samples.

Results

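The mitochondrial ribosomal protein genes were described in the RNA sequencing of THP1 cells treated with bort (bortezomib) or not. They were taken by symbol, as every gene named MRPL or MRPS with a number and, for some, a letter from A to C. All 78 symbols of this form in the reference names were listed in the deposited table, and they are 78 of its 10987 genes, 49 of them MRPL and 29 MRPS. THP1 is a human monocytic leukaemia line, and bort blocks the proteasome, which breaks down ubiquitin-tagged proteins. The study sequenced 1 library of THP1 cells kept in bort for 24 h and 1 library of untreated THP1 cells, and the labels give no dose and no allele or other agent for either. With 1 library per group there is no replicate error and no test, so every difference below is between 2 libraries and not between conditions. In RNA from whole cultures, fewer cells and less RNA per cell cannot be told apart. The values are FPKM (fragments mapped to a gene, scaled by its transcript length and by the library's total of mapped fragments), and fold changes are differences of log2(FPKM + 1), the bort-treated minus the untreated library.

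The labelled cell type was checked first. The erythroid genes GATA1, at 161 FPKM in the untreated and 48.7 FPKM in the bort-treated library, and RHAG, at 222 and 363 FPKM, were abundant, and all 9 erythroid markers looked up were listed. Of 10 monocytic and myeloid markers 5 were listed, the highest being LYZ at 7.61 and 28.7 FPKM, while CD14, CSF1R and MPO were not listed. Such marker levels do not match a monocytic line, so the libraries are named by their labels only. Of 36 proteasome subunit genes, 31 were above 0 on the log2 scale, with a median of 0.47. The 20 most abundant genes took 10.8% of all FPKM in untreated and 21.6% in bort-treated cells. When the libraries were scaled to the total without those genes, 11 mitochondrial ribosomal protein genes were lower and 4 higher by 2-fold, against 8.52% and 9.89% of all genes. Their median log2 fold change was then -0.15, and that of all genes 0.093.

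Mitochondria hold ribosomes of their own, which make a small set of respiratory chain proteins encoded by mitochondrial DNA. The RNA of these ribosomes is encoded in the mitochondrion, whereas their proteins, named MRPL for the large and MRPS for the small subunit, are encoded in the nucleus, made in the cytosol and imported. Some have a counterpart in the bacterial ribosome, and others are found in mitochondria only. The names do not follow the structure everywhere. The products of MRPS30 and MRPS18A sit in the large subunit, and that of MRPS36 is now known as a part of the alpha-ketoglutarate dehydrogenase complex.

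The mitochondrial ribosomal protein genes were on balance lower in the bort-treated library, but they did not move as 1 block. Of the 78 genes, 50 had a log2 fold change below 0 and 28 above it, with a median of -0.25 against 0.0049 over all 10987 genes. A total of 12 genes (15.4%) were lower by 2-fold or more, against 10.2% of all genes, and 3 genes (3.85%) were higher by 2-fold or more, against 8.08% of all genes. At 1.5-fold the counts were 22 lower, where the share over all genes was 21.6%, and 10 higher, where it was 20.8%. The remaining 46 genes lay within 1.5-fold. The excess of lower genes was smaller without the 1 FPKM added before taking logs, where 14 members (17.9%) were lower by 2-fold against 15.6% of all genes, and 3 were higher against 15.1%. The log2 fold changes of the members ran from -1.94 for MRPL12 to 1.90 for MRPS36, with an SD over the genes of 0.74, against 0.80 over all genes. In the values as deposited, the members thus differed among themselves about as widely as genes in general. With the trend of fold change with GC content removed, as described below, the SDs were 0.57 for the members and 0.71 for all genes.

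**Figure D1:**
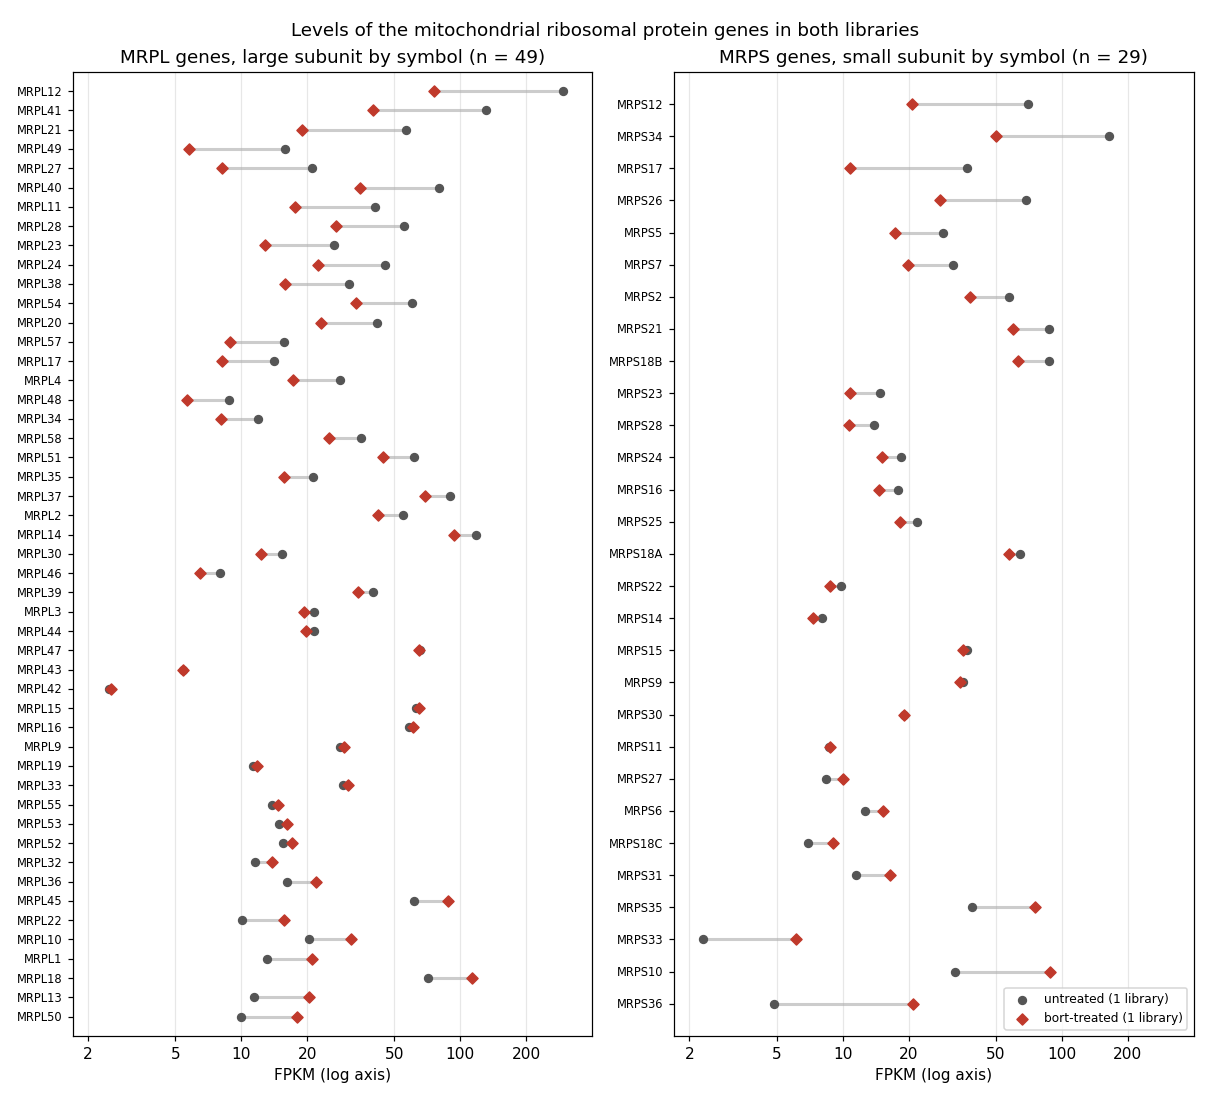
Level of each of the 78 genes in FPKM (log axis) in the untreated (grey circles) and the bort-treated library (red diamonds), with MRPL genes on the left and MRPS genes on the right, ordered by log2 fold change. Among the wide gaps to the left are those of MRPL12 (293 to 75.7 FPKM), MRPS17 (36.9 to 10.8 FPKM) and MRPS12 (70.2 to 20.7 FPKM), and the widest gap to the right is that of MRPS36 (4.89 to 21.0 FPKM).

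As a group the genes summed to 3019.9 FPKM untreated and 2218 FPKM bort-treated, a change of -26.6%. This was 1.44% and 1.00% of the summed FPKM of all genes. MRPL12 alone made up 27.2% of the difference, MRPS34 14.3% and MRPL41 11.3%. The 12 genes lower by 2-fold or more summed to 1034 and 338 FPKM, and the other 66 genes to 1986 and 1880 FPKM. Because the 12 were chosen by this difference, the split is a description only. Within a library the levels ran from 2.30 to 293 FPKM in the untreated cells and from 2.54 to 114 FPKM in the bort-treated cells. The SD of the log2 level over the members was 1.35 and 1.15, so the genes stood closer together in the bort-treated library.

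The order of the most abundant members differed between the libraries. In the untreated library MRPL12 was highest, at 293 FPKM and rank 75 of all genes, followed by MRPS34, MRPL41 and MRPL14. In the bort-treated library MRPL18 was highest, at 114 FPKM, followed by MRPL14, MRPS10 and MRPL45, and MRPL12 was at rank 367 of all genes. MRPL14, a protein at the face where the subunits meet, was at 118 FPKM in the untreated and 93.7 FPKM in the bort-treated library. The least abundant large subunit genes by mean level were MRPL42 (2.48 and 2.54 FPKM), MRPL43 (5.43 and 5.42 FPKM) and MRPL46 (7.96 and 6.48 FPKM), none of which differed by 1.5-fold. Across the 78 genes the levels of both libraries had a Spearman correlation of 0.83, as a description, since all points come from the same pair of libraries.

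Among large subunit genes the lower ones came from several parts of the ribosome. The stalk binds the factors that drive translation. Its protein MRPL12 was at 293 FPKM in the untreated and 75.7 FPKM in the bort-treated library, a log2 fold change of -1.94, the most negative of all members. In the untreated library this gene stood 12.1-fold above the median member, and in the bort-treated library 3.93-fold. MRPL11, at the base of the stalk, was at 40.6 and 17.6 FPKM (log2 fold change -1.16). Its neighbour MRPL10, which carries MRPL12, went the other way, from 20.3 FPKM untreated to 31.6 FPKM bort-treated, a log2 fold change of 0.61. MRPL54 lay at -0.82 and MRPL53 at 0.11. The 5 genes of the stalk therefore did not share a direction, and 2 of them were lower by 2-fold.

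MRPL41, found in mitochondrial ribosomes and not in bacterial ones, was at 131 FPKM in the untreated and 40.1 FPKM in the bort-treated library, a log2 fold change of -1.68. MRPL21 was at 56.2 and 18.9 FPKM (-1.52), and MRPL49 at 15.8 and 5.75 FPKM (-1.32). MRPL27, whose bacterial counterpart reaches towards the site of peptide bond formation, was at 21.0 and 8.13 FPKM (-1.27). MRPL40, a protein of the central protuberance, was at 79.9 and 34.8 FPKM (-1.17), and MRPL28 at 55.5 and 27.0 FPKM (-1.01). Just short of 2-fold lay MRPL23 at -0.997, MRPL24 at -0.98 and MRPL38 at -0.94, and without the added 1 FPKM MRPL23 and MRPL24 were past it, with FPKM ratios of 0.482 and 0.497. No MRPL gene was higher by 2-fold or more.

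The MRPL genes with the highest log2 fold changes were MRPL50, MRPL13, MRPL18, MRPL1 and MRPL10. MRPL50 was at 9.99 FPKM untreated and 18.0 FPKM bort-treated (0.79), and MRPL13 at 11.4 and 20.3 FPKM (0.78). MRPL18, another protein of the central protuberance, was at 71.4 and 114 FPKM (0.66). MRPL1, which forms the mobile stalk on the side where spent tRNA leaves, was at 13.2 and 21.0 FPKM (0.64). The 5 genes listed here for the central protuberance ran from -1.17 for MRPL40 to 0.66 for MRPL18, with 4 of 5 below 0. The 6 genes listed for the exit of the peptide tunnel ran from -0.997 for MRPL23 to 0.59 for MRPL22. Of these 6 genes 4 were below 0 and none was lower or higher by 2-fold. Neither list need hold every gene of its part. MRPL45, which holds the ribosome to the inner membrane near this exit, was one of the 2 above 0, at 61.6 FPKM untreated and 87.7 FPKM bort-treated.

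Among small subunit genes the differences reached 2-fold in both directions. MRPS12, a protein of the decoding centre, was at 70.2 FPKM in the untreated and 20.7 FPKM in the bort-treated library (log2 fold change -1.71). MRPS34, specific to mitochondria, was at 165 and 50.3 FPKM (-1.70), and MRPS17 at 36.9 and 10.8 FPKM (-1.69). MRPS26, also specific to mitochondria, was at 68.7 and 27.9 FPKM (-1.27). The next lowest was MRPS5, at 28.7 and 17.4 FPKM (-0.70), so as deposited the 4 lower genes stood apart from the rest of the MRPS genes. With the GC trend removed MRPS26 was at -0.74 and no longer stood apart, with MRPS7 at -0.60.

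In the other direction, MRPS36 was at 4.89 FPKM untreated and 21.0 FPKM bort-treated (1.90), MRPS10 at 32.6 and 88.1 FPKM (1.41), and MRPS33 at 2.30 and 6.13 FPKM (1.11). MRPS35 was just short of 2-fold, at 38.8 and 75.7 FPKM (0.95), and MRPS31 was at 11.6 and 16.5 FPKM (0.48). MRPS10 belongs to the head of the small subunit and has a bacterial counterpart, while MRPS33, MRPS35 and MRPS31 are specific to mitochondria. MRPS36, the gene with the largest positive value among the 78, is the one whose product is not a ribosomal protein. Low levels weigh on MRPS33, the least abundant MRPS gene in the untreated library, and the number of reads behind its values is unknown. The next least abundant MRPS genes by mean level differed little, MRPS14 at 8.09 and 7.30 FPKM and MRPS18C at 6.94 and 9.07 FPKM. By mean level the most abundant after MRPS34 were MRPS18B, at 87.6 and 63.3 FPKM, and MRPS21, at 87.1 and 59.9 FPKM.

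The MRPS18 family has 3 genes that descend from a single bacterial protein and whose products take different places in the ribosome. MRPS18A, in the large subunit, was at 64.7 FPKM untreated and 57.3 FPKM bort-treated (log2 fold change -0.17). MRPS18B, in the small subunit, lay at -0.46, and MRPS18C, which holds the place of the bacterial protein, at 0.34. None reached 1.5-fold. With the trend of fold change with GC content removed, MRPS18A had a value of 0.18 and MRPS18C of -0.080, so the direction of both depended on this trend.

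The subunits were then compared. The median log2 fold change was -0.30 over the 49 MRPL genes and -0.17 over the 29 MRPS genes, a difference of -0.13, while the SD over genes was 0.67 and 0.85. The share of genes above 0 was 36.7% for MRPL and 34.5% for MRPS. By 2-fold, 8 MRPL genes (16.3%) were lower and 0 higher, against 4 lower (13.8%) and 3 higher (10.3%) MRPS genes. The shares over all genes were 10.2% lower and 8.08% higher. By 1.5-fold 16 of the 49 MRPL genes were lower and 6 higher, against 6 lower and 4 higher of the 29 MRPS genes. At 1.5-fold, 21.6% of all genes were lower and 20.8% higher. The summed FPKM of the bort-treated library was 0.714 of the untreated library for MRPL and 0.774 for MRPS. When the genes were assigned by the place of their product, with MRPS30 (19.1 FPKM in both libraries) and MRPS18A moved to the large subunit and MRPS36 left out, the medians were -0.26 for 51 large subunit genes and -0.26 for 26 small subunit genes, a difference of -0.0024. The means still differed, at -0.33 and -0.25, as did the medians with the GC trend removed, at -0.30 and -0.23. The 3 higher genes became 2, both of the small subunit (7.69% of its genes).

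By origin of the proteins the medians as deposited were also close. The 47 genes with a bacterial counterpart had a median of -0.27, with 7 (14.9%) lower and 1 (2.13%) higher by 2-fold. The 30 genes specific to mitochondria had a median of -0.23, with 5 (16.7%) lower and 1 (3.33%) higher. Of all genes 10.2% were lower and 8.08% higher. MRPS18B and MRPS18C were counted with the former genes and MRPS18A with the latter, although all 3 descend from a single bacterial protein. With the GC trend removed the order of the medians was reversed, at -0.24 and -0.31, and 6 and 2 genes were lower by 2-fold. A further 7 symbols for proteins of the mitochondrial ribosome were looked up, of which 5 were listed. The other two, ICT1 and MRP63, are older names of the members MRPL58 and MRPL57. AURKAIP1 was at 134 FPKM untreated and 50.6 FPKM bort-treated (-1.38), and DAP3, a GTP-binding protein of the small subunit head, at 32.4 and 49.7 FPKM (0.60). PTCD3, CHCHD1 and GADD45GIP1 lay below 0 and within 2-fold. Adding the 5 genes gave 13 lower and 3 higher genes and a median of -0.25.

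GC content moved with these differences, and its part in them was not tested. Over the 10907 genes with a transcript in GENCODE 29, log2 fold change and transcript GC content had a Spearman correlation of -0.48, and over the 78 members it was -0.63. It was -0.56 for the MRPL and -0.77 for the MRPS genes. The members were split by GC content into 3 bands of 26 genes. In the lowest band (35.0% to 46.4%) 17 of 26 genes were above 0, with a median of 0.15, against 0.36 for the 3957 genes of the whole table in that range. In the middle band (46.5% to 54.1%) 20 of 26 were below 0, with a median of -0.44 against -0.020 over 2763 genes. In the highest band (54.1% to 71.9%) 21 of 26 were below 0, with a median of -0.63 against -0.39 over 4080 genes. In each band the members thus had a lower median than the genes of like GC content. All 3 higher genes lay in the lowest band, which held none of the 12 lower genes, and 8 of the 12 lay in the highest band. The whole table was split in the same way, with 13.7% of genes higher and 1.49% lower by 2-fold in the lowest band and 3.50% higher and 20.8% lower in the highest.

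With the GC trend removed, the median of the members was -0.28 against 0.014 over all genes, and 8 genes (10.3%) were lower and 2 (2.56%) higher by 2-fold, all of them among the 12 and the 3. The shares over all genes were then 6.29% lower and 7.16% higher. MRPL12 then stood at -1.35, MRPS12 at -1.26 and MRPS34 at -1.10. MRPS17 and MRPL21, whose GC content of 50.6% and 50.8% is close to the median of all genes, hardly changed, at -1.64 and -1.46. MRPL41, with 71.9% GC the richest member, came to -0.67, MRPS26 to -0.74, MRPL40 to -0.80, MRPL28 to -0.56 and MRPS33 to 0.83, and these 5 were no longer past 2-fold. MRPL50 came to 0.11 and MRPL1 to 0.051. MRPS36 remained at 1.43 and MRPS10 at 1.04. Among the remaining genes 5 passed from below 0 to above it and 6 the other way.

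**Figure D2:**
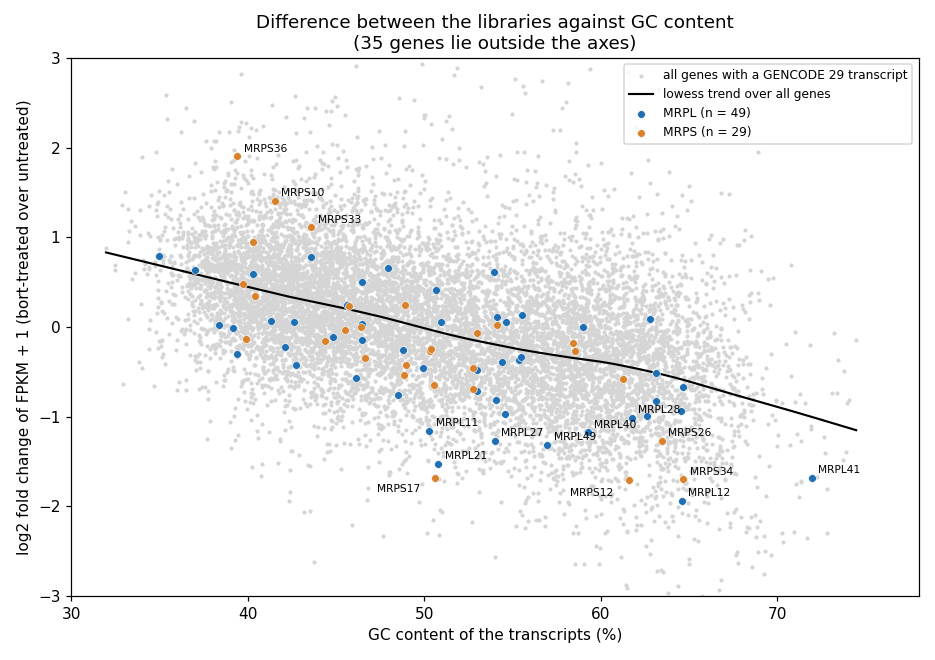
Log2 fold change of FPKM + 1 (bort-treated over untreated) against the GC content of the transcripts in percent, for all genes (light grey) and the MRPL (blue) and MRPS genes (orange), with the lowess trend over all genes as a line. Named are the 15 members past 2-fold, and 35 genes lie outside the axes. MRPS17, MRPL21 and MRPL11 stand well below the line at a middling GC content, whereas MRPL41 lies nearer to it at 71.9%.

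Promoter sequences were compared next, since the members are parts of the same ribosome but differed in opposite directions. Windows from 250 bases before to 50 bases after the annotated start were found for 69 of the 78 members in RefSeq (GRCh38.p14). Their median GC content was 60.3%, against 65.7% for the genes of the table that have a window. For each subunit the windows of the members with the lowest and the highest log2 fold change that have one are shown, together with that of MRPS11, whose start lies 34 bases from that of MRPL46 on the other strand. They are written 5′ to 3′ on the strand of the gene, and capitals mark an ETS core or a YY1 core, defined after them. Of a gene with several windows the first listed is given.
MRPL12 (chr17:81703117-81703416, plus strand): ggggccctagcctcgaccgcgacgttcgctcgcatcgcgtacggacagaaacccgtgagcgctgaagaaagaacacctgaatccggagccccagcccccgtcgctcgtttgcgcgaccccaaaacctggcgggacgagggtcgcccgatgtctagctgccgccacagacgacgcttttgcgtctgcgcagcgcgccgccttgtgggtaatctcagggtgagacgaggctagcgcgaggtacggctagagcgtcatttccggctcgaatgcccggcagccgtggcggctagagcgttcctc
MRPL50 (chr9:101398569-101398868, minus strand): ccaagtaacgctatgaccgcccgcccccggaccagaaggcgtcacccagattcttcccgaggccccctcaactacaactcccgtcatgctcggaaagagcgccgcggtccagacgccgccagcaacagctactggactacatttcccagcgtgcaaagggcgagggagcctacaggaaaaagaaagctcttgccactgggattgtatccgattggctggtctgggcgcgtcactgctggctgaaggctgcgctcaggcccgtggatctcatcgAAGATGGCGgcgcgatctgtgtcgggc
MRPS12 (chr19:38930694-38930993, plus strand): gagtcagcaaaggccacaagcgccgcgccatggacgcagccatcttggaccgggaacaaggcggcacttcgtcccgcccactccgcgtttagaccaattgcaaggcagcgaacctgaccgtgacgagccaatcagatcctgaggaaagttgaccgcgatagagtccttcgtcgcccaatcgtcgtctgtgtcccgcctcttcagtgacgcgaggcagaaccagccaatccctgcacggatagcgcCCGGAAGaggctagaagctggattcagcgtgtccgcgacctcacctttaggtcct
MRPS10 (chr6:42217812-42218111, minus strand): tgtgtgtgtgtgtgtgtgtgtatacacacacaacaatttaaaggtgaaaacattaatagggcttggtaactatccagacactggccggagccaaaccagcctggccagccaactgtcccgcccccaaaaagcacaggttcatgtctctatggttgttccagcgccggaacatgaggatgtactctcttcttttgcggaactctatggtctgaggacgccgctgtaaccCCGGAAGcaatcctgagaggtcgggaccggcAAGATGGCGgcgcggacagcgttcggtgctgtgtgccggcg
MRPS11 (chr15:88467458-88467757, plus strand): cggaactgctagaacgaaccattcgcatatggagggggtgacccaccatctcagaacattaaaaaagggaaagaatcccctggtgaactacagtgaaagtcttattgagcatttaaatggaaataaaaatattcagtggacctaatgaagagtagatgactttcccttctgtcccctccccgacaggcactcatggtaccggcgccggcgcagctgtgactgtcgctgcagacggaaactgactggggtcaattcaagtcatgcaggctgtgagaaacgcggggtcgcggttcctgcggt

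In these windows 4 motifs were searched on both strands. The ETS core CCGGAAG, bound by factors such as GABPA, was present in 30 of the 69 members (43.5%), against 24.4% of 8544 genes of the table and 12.2% of all 27305 genes with a window. The YY1 core AAGATGGCG was present in 13 members (18.8%), against 5.27% and 2.14%. It can overlap the ETS core by its first bases. The NRF1 core GCATGCG was present in 7 members (10.1%, against 8.05% and 4.74%) and the E-box CACGTG, bound by MYC and related factors, in 9 (13.0%, against 13.4% and 8.77%). ETS and YY1 cores were thus more frequent in members than in the table, and no test of this was made. These matches are descriptions of letters and not of binding.

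The motifs were set beside the fold changes. Members with an ETS core had a median log2 fold change of -0.28 and those without of -0.22. For the YY1 core the medians were 0.022 with and -0.32 without it. For the NRF1 core they were 0.13 and -0.26, and for the E-box 0.34 and -0.25. These medians are of the values as deposited and were not taken with the GC trend removed. The E-box median is the value of MRPS18C, which was -0.080 with that trend removed. The part of GC content in these contrasts was not tested. Of the 11 genes lower by 2-fold that have a window, 6 held an ETS core, 1 an E-box, 0 a YY1 core and 0 an NRF1 core. Of the 2 higher genes with a window MRPS10 holds an ETS and a YY1 core, at positions -22 and 10 from the start, and MRPS33 an ETS core and an E-box. MRPS12, in the opposite direction, also holds an ETS core, at position -5. The window of MRPL12 holds none of the 4 motifs, and that of MRPL50 a YY1 core at position 24. YY1 itself was at 23.3 FPKM untreated and 10.5 FPKM bort-treated (log2 fold change -1.08, or -0.99 with the GC trend removed). GABPA was at 5.58 and 5.77 FPKM, NRF1 at 7.45 and 5.39 FPKM and MYC at 6.64 and 5.69 FPKM.

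Several members share a start region with a gene on the other strand. By GENCODE 29, 22 members have a protein-coding neighbour in the table whose start lies head to head, within 1000 bases upstream or 500 bases inside the member, which gives 21 pairs. The members and their neighbours had the same sign in 11 of the 21 pairs, and their log2 fold changes a Spearman correlation of 0.32, as a description over pairs of the same libraries. MRPS34 and EME2, with starts 52 bases apart, were both lower, EME2 from 6.63 to 0.553 FPKM. MRPL21 was at -1.52 while IGHMBP2, 7 bases away, was at -0.46. MRPL27 was at -1.27 while EME1, 6 bases away, was at 0.41. MRPS12 was at -1.71 and SARS2, the mitochondrial seryl-tRNA synthetase, at 0.061, with 13.0 FPKM untreated and 13.6 FPKM bort-treated. MRPS11 and MRPL46, with starts 34 bases apart, belong to different subunits. MRPS11 lay at 0.019 (8.65 and 8.78 FPKM) and MRPL46 at -0.26. In 10 of the 21 pairs the signs differed. Whether fragments were assigned by strand is not stated, so where genes overlap on opposite strands their values are uncertain.

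**Figure D3:**
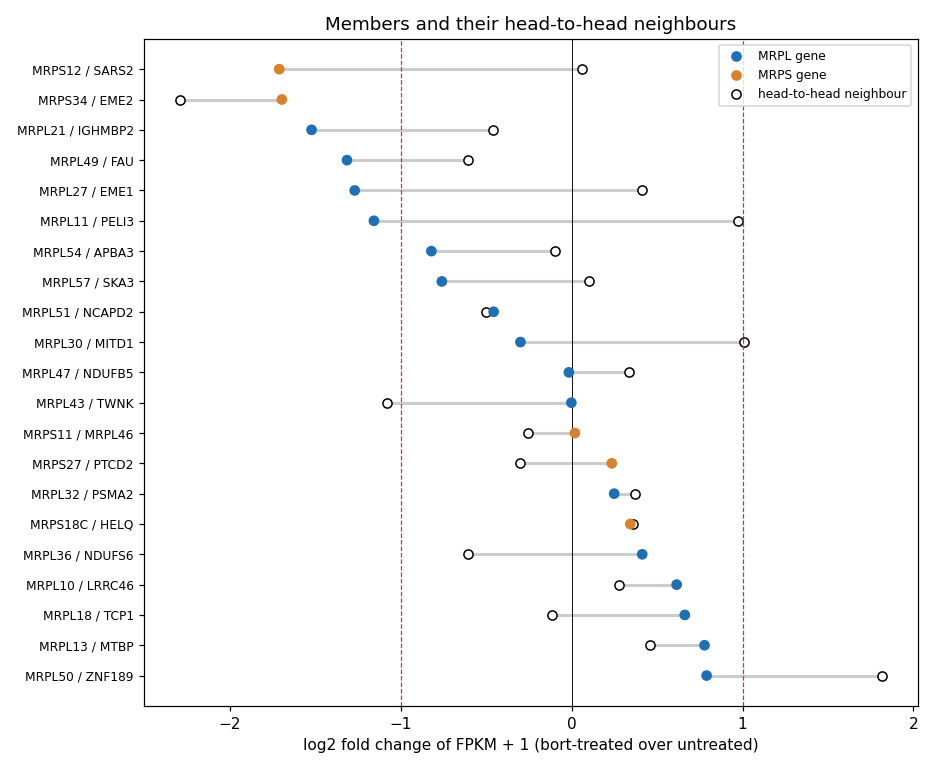
Log2 fold change of FPKM + 1 (bort-treated over untreated) of 21 head-to-head pairs, with the MRPL (blue) or MRPS gene (orange) as filled circles and the neighbour as open circles. Dashed lines mark 2-fold. The circles lie close together for MRPS18C and HELQ (0.34 and 0.36) and far apart for MRPL11 and PELI3 (-1.16 and 0.97).

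Some values are limited by other genes that share sequence. In GENCODE 29, 13 members have exons in common with another protein-coding gene on the same strand. For MRPL12 this is a gene listed as AC139530.2, at 0.636 FPKM untreated and 0 FPKM bort-treated, small beside MRPL12 itself. For MRPS17 they are AC092647.5, at 1.10 and 0.318 FPKM, and NIPSNAP2, at 4.43 and 3.23 FPKM. MRPL28 overlaps TMEM8A, at 18.2 and 17.3 FPKM, and MRPS16 (17.8 and 14.7 FPKM) overlaps DNAJC9, which was more abundant, at 37.1 and 17.2 FPKM. A total of 34 members have pseudogenes named after them, 75 in all, among them 8 of MRPS21, 5 of MRPS36 and 2 of MRPS10. How reads were divided between these copies is not stated, and the values of such members are uncertain to that degree. MRPL12, MRPS12, MRPS34, MRPL41, MRPL21 and MRPS26 have no pseudogene named after them.

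The other genes of mitochondrial translation were given from lists by role. Over all genes the shares lower and higher by 2-fold were 10.2% and 8.08%. Of 27 listed genes for assembly of the ribosome and modification of its RNA, 19 were below 0, with a median of -0.49. By 2-fold 5 (18.5%) were lower and 0 higher. MRM1, MRM2 and MRM3, which methylate the RNA of the large subunit, were all among the 5. MRM1 was at 36.1 FPKM untreated and 8.38 FPKM bort-treated (-1.98), MRM2 at 22.1 and 10.3 FPKM (-1.04) and MRM3 at 26.6 and 12.3 FPKM (-1.05). RCC1L was at 30.7 and 12.2 FPKM, and TRUB2, which makes pseudouridine, at 39.1 and 18.6 FPKM. With the GC trend removed 1 gene of this list, MRM1, was lower by 2-fold. The highest value was that of GTPBP10, at 2.03 and 3.03 FPKM.

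Of 18 listed factors of mitochondrial translation 9 were below 0, with a median of -0.018. As deposited 2 (11.1%) were lower and 1 (5.56%) higher by 2-fold. With the GC trend removed the median was -0.37, with 3 lower and 1 higher by 2-fold. LETM1, a protein of the inner membrane, was at 33.9 FPKM untreated and 11.04 FPKM bort-treated (-1.54), and SLIRP, which protects mitochondrial messenger RNA, at 33.2 and 15.7 FPKM (-1.04). C12orf65, which frees stalled mitochondrial ribosomes, was higher, at 1.74 and 5.46 FPKM (1.24). Of 17 genes of mitochondrial transcription and RNA processing 10 were below 0, with a median of -0.11 (-0.35 with the GC trend removed). As deposited 3 of these genes (17.6%) were lower by 2-fold, and 1 was with the GC trend removed. The 3 were TBRG4, at 30.3 and 9.48 FPKM, HSD17B10, a part of the enzyme that cuts mitochondrial tRNAs free, at 195 and 87.7 FPKM, and POLRMT, the mitochondrial RNA polymerase, at 41.7 and 19.8 FPKM. ANGEL2 had the highest value of that list, at 1.69 and 4.10 FPKM. Of 10 regulators of nuclear genes for mitochondria 8 were listed, and 7 of these were below 0. As deposited 2 (25%) were lower by 2-fold, ESRRA (26.2 and 5.32 FPKM) and YY1, against 10.2% of all genes. With the GC trend removed 1 was, ESRRA, and YY1 came to -0.99.

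The transcripts that these ribosomes translate stood on the other side. All 13 listed protein-coding genes of mitochondrial DNA were above 0, with a median log2 fold change of 1.65, and 11 were higher by 2-fold. Their values ran from 0.62 for MT-CO2, at 2497 and 3839 FPKM, to 2.56 for MT-ND5, at 131 and 779 FPKM. The genes of the mitochondrial ribosomal RNA were not listed. The 76 nuclear genes of the respiratory chain, by contrast, had a median of -0.31, with 48 below 0, 5 (6.58%) lower and 3 (3.95%) higher by 2-fold. This median was near that of the mitochondrial ribosomal protein genes, while the share lower by 2-fold was smaller than theirs and than that of all genes. ATP5D was lowest, at 52.8 and 15.9 FPKM, and NDUFB4 highest, at 8.39 and 27.4 FPKM. The 84 cytosolic ribosomal protein genes had a median of 0.30, with 63 above 0. By 2-fold 7 (8.33%) were higher, near the 8.08% of all genes, and 0 lower, against 10.2% of all genes. The choice by symbol also let in RPS27L and RPL22L1, and both are among the 7. It let in RPL26L1 (-0.67), RPL7L1 (-0.22) and RPL39L (0.12) as well, which were within 2-fold. RPL29 was highest at 51.7 and 168 FPKM and RPS26 lowest at 173 and 106 FPKM. The medians of both kinds of ribosomal protein genes thus had opposite signs, and with the GC trend removed they were -0.28 and 0.33. With 1 library per group these differences between lists could not be tested.

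**Figure D4:**
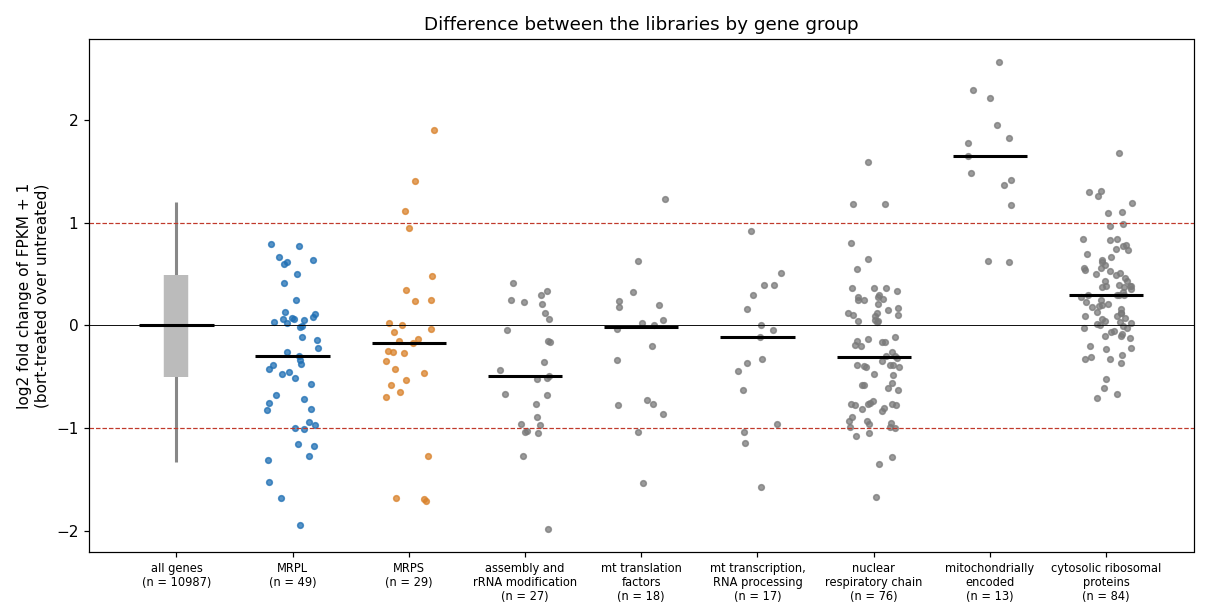
Log2 fold change of FPKM + 1 (bort-treated over untreated) of each gene in the MRPL and MRPS genes and in related lists, where mt stands for mitochondrial, short black lines mark medians and dashed lines mark 2-fold. For all genes the thick bar spans the middle 50% and the thin line the middle 90%. The medians are -0.30 for MRPL, -0.17 for MRPS, 1.65 for the mitochondrially encoded and 0.30 for the cytosolic ribosomal protein genes.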

How the data were processed

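RNA sequencing of THP1 cells was analysed for 1 library labelled as treated with bort for 24 h and 1 labelled as untreated. Per the study's methods, the authors used HISAT2 2.0.4 for alignment and StringTie 1.2.3 for transcript assembly. The deposited values are FPKM per gene by the file header, although the file's name speaks of counts, and how they were computed is not given in the sources used here. The submitters' processing notes name GRCh37, and 10864 of the 10987 identifiers have the ending that GENCODE gives to annotation lifted to it. The methods describe a stranded KAPA kit with poly-A selection, the labels a TruSeq kit. Every listed gene reached 0.501 FPKM in at least 1 library, and genes below that were not analysed here. Depth is unknown. Few values above 0 lay below 0.2 FPKM (119 and 121 genes), and the value of 1 read was not recovered.

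Fold changes are differences of log2(FPKM + 1), which understates changes of genes with low FPKM. The threshold was 2-fold. No p-value was computed, since each group has 1 library. GC content is the median over transcripts of GENCODE 29 (GRCh38), used for names, neighbours and sequence properties only. To remove the GC trend, a lowess fit (span 0.3) over all genes was subtracted. Promoter windows come from RefSeq (GRCh38.p14). The calculations were tested on simulated data. Python 3.11.15, numpy 2.4.6, pandas 2.3.3, statsmodels 0.14.6 and matplotlib 3.10.9 were used.

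The members and lists were chosen with earlier results of these data known. Named are members past 2-fold, the 5 highest and 5 lowest fold changes and the 3 most and 3 least abundant genes of each subunit, the MRPS18 genes, MRPS30 and MRPS36, and from other lists the extremes and the genes past 2-fold. Further genes were named after their values were seen, as members of a group or pair described.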

Additional observations from a re-analysis of the deposited data

How the results depend on the processing

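No paired analysis was possible because each group has 1 library, and no library could be left out. At a threshold of 1.5-fold 22 members were lower and 10 higher, 32 in all, and at 4-fold 0 were lower and 0 higher, 0 in all. MRPS36 was past 4-fold without a pseudocount (2.11), at 0.1 FPKM (2.08), with upper quartile scaling (2.002) and with scaling without the 20 most abundant genes (2.001). Under the other pseudocounts, a filter of 1 FPKM, the 3 other scalings, the GC correction, assignment by structure and the added genes, between 8 and 14 members were lower and between 2 and 4 higher, within 1.5 times of the counts given. With no pseudocount or 0.1 FPKM, 17.9% of members were lower against 15.6% and 15.1% of all genes, a smaller excess than 15.4% against 10.2%. The median of the members stayed below 0, between -0.28 and -0.15, the latter with upper quartile scaling or scaling to the total without the 20 most abundant genes, which moved the median of all genes to 0.094 and 0.093. The difference of medians between MRPL and MRPS ran from -0.17 for means to -0.0024 by structure. The 15 members past 2-fold kept their direction under all 8 settings of scale, filter and correction, and 10 of them stayed past 2-fold throughout. MRPL28 dropped below it under upper quartile scaling, scaling without the 20 most abundant genes and the GC correction, and MRPL40, MRPL41, MRPS26 and MRPS33 under the GC correction. MRPS35 passed 2-fold (1.05) under both of those scalings, and MRPL23 and MRPL24 passed it with no pseudocount or 0.1 FPKM. The cause of these shifts was not tested. The counting error of genes with low FPKM, such as MRPS33, cannot be given without the depth.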
